A study of Mus musculus with 16 samples.

Results

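The comparison set a free running wheel against a locked one in demyelinated mouse spinal cord at day 10, and its members were the 8 RNA-seq libraries that the labels call Exercise Day_10 (numbers 13, 17, 18 and 19) or Control Day_10 (numbers 2, 3, 4 and 5), of 16 libraries in the series. All 8 came from C57BL/6 mice of 8 to 12 weeks whose cord had been injected with lysolecithin, a lipid that dissolves myelin, so that the control mice also carried a lesion and the wheel was the stated difference. The lesion was cut from frozen cord by laser microdissection, and its RNA was amplified, selected for poly(A) and sequenced as strand-specific single reads of 75 nt, per the labels' protocols. From which event day 10 is counted, how far each mouse ran and whether the libraries are separate animals is not in the labels; the p-values therefore refer to library-to-library spread. The other 8 libraries, of day 5, served to estimate that spread and to set the day 10 values beside an earlier day.

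A lysolecithin lesion is a region of cord stripped of myelin in which microglia and blood-borne macrophages take up myelin debris, and in which oligodendrocyte precursors divide, mature and wrap the axons again. Phagocytes find and engulf debris with integrins, complement receptors and receptors for exposed phosphatidylserine such as Mertk, and they move by remodelling actin through small GTPases. The vessels and meninges around the lesion carry adhesion molecules and chemokines that admit leukocytes, and they secrete growth factors, among them insulin-like growth factor 2.

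Control libraries held 10.7 to 12.7 M counts and exercise libraries 9.77 to 11.1 M (M, mega). Lesion phagocyte and oligodendrocyte genes were well covered in both groups: the summed level of 16 microglial genes was 9406 to 12339 CPM in control and 10638 to 19148 CPM in exercise, and that of 28 myelin and mature oligodendrocyte genes was 27120.2 to 30609 CPM in control and 13673 to 31177 CPM in exercise, where CPM is the count scaled to the effective library size. Exercise 17, which the authors' day 10 table leaves out for a reason not given in the sources used here, stood apart. It had 240 genes at least 1 log2 unit below all the other 7 libraries, against 12 to 68 for each of the others. In the upward direction it had 35 such genes, within the 28 to 58 of the others. Its median correlation with the other libraries was 0.950, against 0.958 to 0.966. Of the 50 gene lists described below, it had the highest mean level of the 8 libraries in 12 and the lowest in 14, where the other libraries were highest in 2 to 11 (control 2) and lowest in 1 to 16 (exercise 13). Its mean level over 28 myelin and mature oligodendrocyte genes was 6.15 log2 CPM, and the other 7 ran from 6.78 to 7.43. Values without it are given beside the results.

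With all libraries, 29 of 15096 genes differed between exercise and control at an adjusted p under 0.05 by edgeR, which is 0.192% of the genes tested. The 16 higher genes (0.106%) included receptors for debris and complement (Mertk, C5ar1, Itgam, Havcr2) and the receptor gene Tnfrsf11a. Also among them were the leukotriene enzyme Alox5, the peptide-loading gene H2-DMa, genes of leukocyte movement (Dock2, Apbb1ip, Fyb, Fmnl1) and Fkbp5, a glucocorticoid-responsive co-chaperone. The 13 lower genes (0.0861%) included Igf2 and Igfbp4 of the insulin-like growth factor system, the vessel-wall genes Vtn, Vcam1, Cxcl12 and Slco1a4, the retinol dehydrogenase gene Adh1 and the monocyte gene Plac8. Fold changes of the higher genes ran from 1.49 to 2.55, and in all 29 genes the 4 exercise libraries did not overlap the 4 control libraries. Over all genes tested, the exercise libraries were all above the control libraries in 498 (3.3%) and all below in 390 (2.58%), 888 together (5.88%).

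The number of genes called changed with the libraries and the tool used. Without exercise 17, edgeR called 0 genes, with 1601 genes at an unadjusted p under 0.05 (10.6%) against 1935 (12.8%) with it. All 29 genes kept their direction without exercise 17, and all stayed apart between the groups. Both follow from groups that did not overlap with every library included. Their adjusted p without exercise 17 lay between 0.0678 and 0.117. The other libraries mattered as much: 0 genes were called without control 2, control 3 or exercise 19, 1 without exercise 13 and 2 without control 5. The count was 19 without control 4 and 136 without exercise 18, and these held 15 and 28 of the 29. DESeq2 called 227 genes (1.57%) on all 16 libraries, 132 higher (0.911%) and 95 lower (0.655%), all 29 among them. Fitted to the same 7 libraries as the authors' table, it called 182 genes (1.26%), all 29 among them, and on the 8 day 10 libraries it called 176 (1.33%), again with all 29. EdgeR fitted to the 8 day 10 libraries alone, without the day 5 libraries, called 0 genes, with 1519 at an unadjusted p under 0.05, and on the authors' 7 libraries it called 3, of which 1 was among the 29. The authors' deposited table called 179 of 15674 genes (1.14%), 90 higher and 89 lower, and all 29 were among these. That table shares its libraries with the fits here, so that it is no independent measurement. Of its 179 genes 175 were tested here, and all 175 had the same sign.

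**Figure D1:**
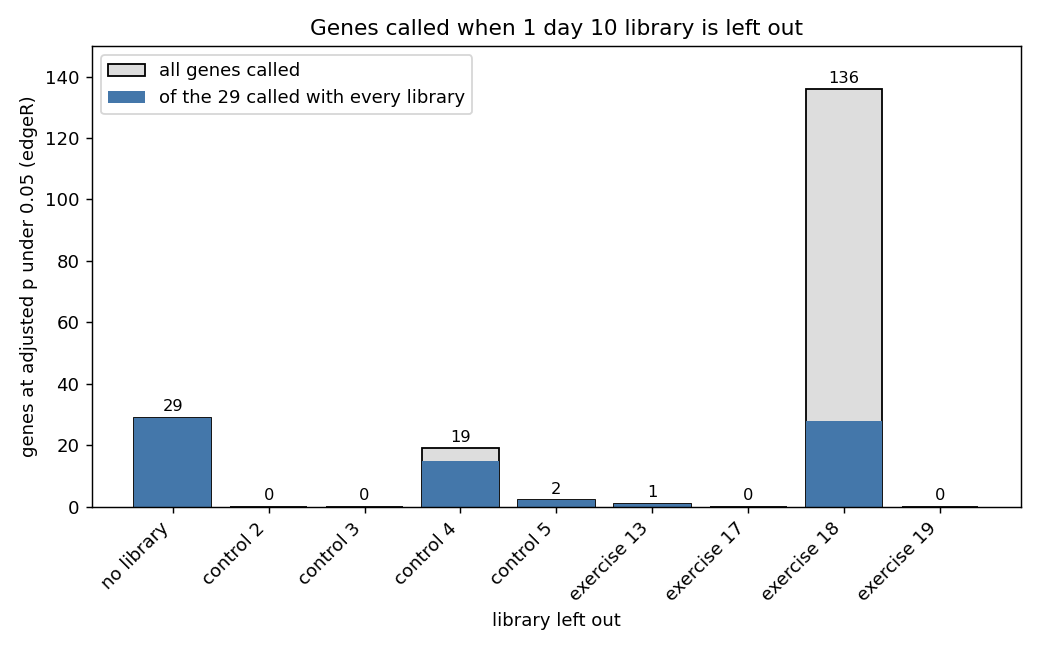
Bars give the number of genes at an adjusted p under 0.05 by edgeR (y axis) with every library and with each day 10 library left out in turn (x axis), and the filled part is the share belonging to the 29 genes called with every library. The count ran from 0 without control 2, control 3, exercise 17 or exercise 19 to 136 without exercise 18.

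**Figure D2:**
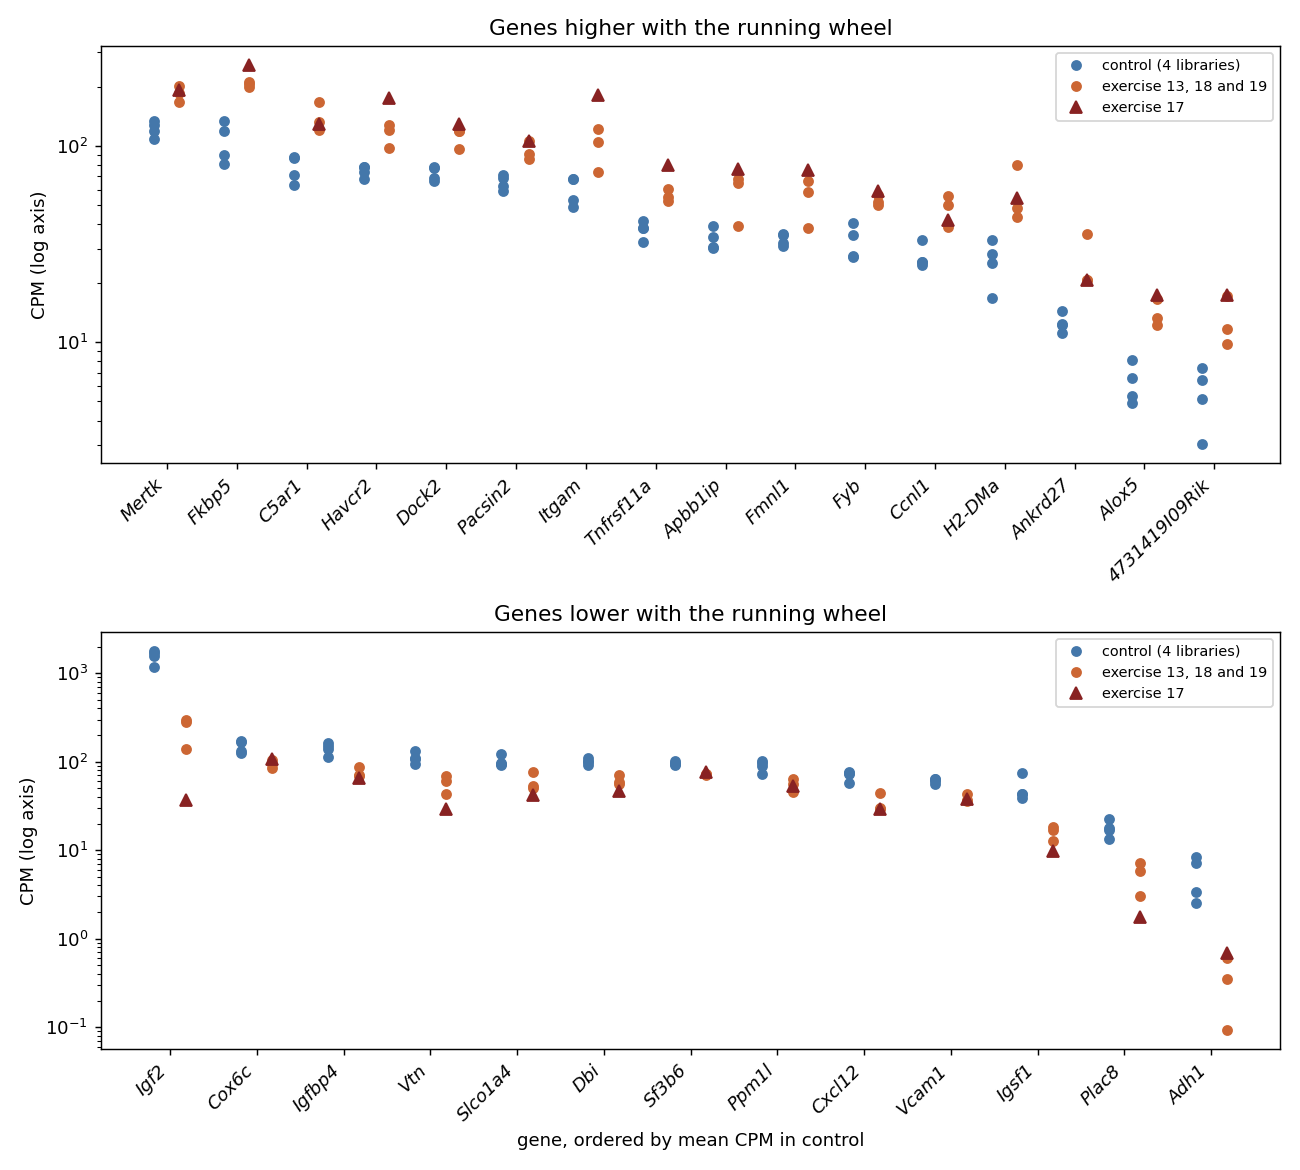
Each point is one library's CPM (log axis) for the 16 higher genes (top) and the 13 lower genes (bottom), with control libraries in blue, exercise 13, 18 and 19 in orange and exercise 17 as a dark triangle. The groups do not overlap in any of the 29 genes, and exercise 17 is the lowest exercise library for Igf2, Vtn and Plac8 and the highest for Itgam and Havcr2.

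The higher genes included 5 receptors of phagocytes, although most members of their lists were not called. Of 14 integrin, complement receptor and Fc receptor genes 2 were called, and of 7 genes of the TAM receptors and their ligands 1. Over all genes tested, 0.106% were called higher. Mertk (ENSMUSG00000014361, chromosome 2, 128698956 to 128802894 on GRCm38) encodes a receptor tyrosine kinase of the TAM family that binds bridging proteins on phosphatidylserine-exposing membrane. Mertk measured 108, 135, 119.9 and 128 CPM in control 2, 3, 4 and 5 and 202, 193, 168 and 185 CPM in exercise 13, 17, 18 and 19. Every exercise library was above every control library, the step between the nearest pair being from 135 to 168 CPM, and the fold change was 1.53 (log2 0.61, SE 0.11, adjusted p 0.0384). Without exercise 17 the log2 difference was 0.59. C5ar1 (ENSMUSG00000049130, chromosome 7, 16246743 to 16259540), the receptor for the complement fragment C5a, measured 63.6, 71.2, 86.7 and 88.1 CPM in control 2, 3, 4 and 5 and 132, 129, 119.97 and 167 CPM in exercise 13, 17, 18 and 19. Exercise 19 was the highest library and exercise 17 lay among the others, and the difference was 1.77-fold (log2 0.82, SE 0.14, adjusted p 0.0384; 0.85 without exercise 17). Itgam (ENSMUSG00000030786, chromosome 7, 128062640 to 128128160) encodes CD11b, the alpha chain of complement receptor 3. Its levels were 53.2, 48.99, 67.6 and 67.9 CPM in control 2, 3, 4 and 5 and 105, 181, 73.9 and 122 CPM in exercise 13, 17, 18 and 19. Exercise 17 was far above the rest and exercise 18 only just above control 5, so that the log2 difference of 1.02 (SE 0.20, adjusted p 0.0424) was 0.75 without exercise 17.

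Havcr2 (ENSMUSG00000020399, chromosome 11, 46454935 to 46481255) encodes TIM-3, a phosphatidylserine-binding inhibitory receptor of T cells and microglia. It measured 73.4, 77.8, 67.9 and 78.3 CPM in control 2, 3, 4 and 5 and 120.2, 175, 97.6 and 128 CPM in exercise 13, 17, 18 and 19. As for Itgam, exercise 17 was highest and exercise 18 lowest among the exercise libraries, and the fold change was 1.75 (log2 0.81, SE 0.16, adjusted p 0.0424; 0.63 without exercise 17). Tnfrsf11a (ENSMUSG00000026321, chromosome 1, 105780718 to 105847981), the receptor RANK that drives osteoclast formation and is also carried by microglia, measured 32.3, 38.1, 41.3 and 38.3 CPM in control 2, 3, 4 and 5 and 55.1, 79.9, 52.2 and 60.3 CPM in exercise 13, 17, 18 and 19. The difference was 1.65-fold (log2 0.72, SE 0.13, adjusted p 0.0384), and 0.57 on the log2 scale without exercise 17. Alox5 (ENSMUSG00000025701, chromosome 6, 116410077 to 116461178) encodes 5-lipoxygenase, which starts the synthesis of leukotrienes from arachidonic acid. Alox5 was low in all libraries, with 4.94, 5.36, 8.10 and 6.55 CPM in control 2, 3, 4 and 5 and 16.7, 17.4, 12.3 and 13.3 CPM in exercise 13, 17, 18 and 19. The exercise libraries were all above the control libraries, by 2.39-fold in the mean (log2 1.26, SE 0.22, adjusted p 0.0384; 1.18 without exercise 17). H2-DMa (ENSMUSG00000037649, chromosome 17, 34135182 to 34139101), a chain of the H2-DM complex that loads peptides onto MHC class II, measured 16.9, 25.3, 33.05 and 28.2 CPM in control 2, 3, 4 and 5 and 79.8, 54.3, 43.4 and 48.6 CPM in exercise 13, 17, 18 and 19. Here exercise 13 was highest, and the difference was 2.19-fold (log2 1.13, SE 0.21, adjusted p 0.0401; 1.15 without exercise 17).

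Genes with roles in leukocyte movement were also among the higher genes. Dock2 (ENSMUSG00000020143, chromosome 11, 34226815 to 34783892) encodes an exchange factor that activates the GTPase Rac in leukocytes. It measured 68.9, 66.3, 77.4 and 78.5 CPM in control 2, 3, 4 and 5 and 119.6, 130.2, 96.03 and 119.7 CPM in exercise 13, 17, 18 and 19. The exercise libraries exceeded the control libraries by 1.60-fold (log2 0.68, SE 0.11, adjusted p 0.0374), with 0.62 without exercise 17. Apbb1ip (ENSMUSG00000026786, chromosome 2, 22774094 to 22875653) encodes RIAM, which links the GTPase Rap1 to talin and so to integrin activation, and Fmnl1 (ENSMUSG00000055805, chromosome 11, 103171107 to 103198901) encodes an actin-nucleating formin of leukocytes. Apbb1ip measured 34.5, 30.2, 39.1 and 30.6 CPM in control 2, 3, 4 and 5 and 64.5, 76.8, 39.3 and 68.2 CPM in exercise 13, 17, 18 and 19. Fmnl1 measured 30.98, 35.5, 35.4 and 31.9 CPM in control 2, 3, 4 and 5 and 66.3, 75.5, 38.1 and 58.5 CPM in exercise 13, 17, 18 and 19. In both genes exercise 18 lay close to the highest control library while the other 3 exercise libraries were well above, and the differences were 1.85-fold (log2 0.89, SE 0.17, adjusted p 0.0401) and 1.78-fold (log2 0.83, SE 0.16, adjusted p 0.0424). Fyb, an adaptor between immune receptors and actin, ranged over 27.2 to 40.7 CPM in control and 49.9 to 59.1 CPM in exercise (log2 0.74, SE 0.15, adjusted p 0.0480), and 4.45% of its exon bases are shared with the gene Gm7666. Pacsin2, a membrane-bending protein of endocytosis, ranged over 59.2 to 71.4 CPM in control and 86.01 to 106 CPM in exercise (log2 0.57, SE 0.10, adjusted p 0.0384).

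The promoters of Apbb1ip, Havcr2 and Fmnl1 are shown because each holds the 8 letters GAGGAAGT, the core bound by the myeloid factor PU.1, on either strand. RefSeq promoters on GRCm38.p6 (250 bases before to 50 after the annotated start) were matched for 15 of the 16 higher genes and 10 of the 13 lower genes. The letters occurred in 3 of the 15 higher genes and in 0 of the 10 lower genes, against 3.69% of all 27018 genes with a promoter. Counted by promoter, they occurred in 3 of 18 of the higher genes, against 3.2% of all 32841 promoters of that length. A match describes the sequence only, and binding was not measured. All 3 promoters are on the plus strand, at chr2:22774077-22774376 for Apbb1ip, chr11:46454681-46454980 for Havcr2 and chr11:103170888-103171187 for Fmnl1, and the capitals mark the match, which reads ACTTCCTC on the other strand.
Apbb1ip: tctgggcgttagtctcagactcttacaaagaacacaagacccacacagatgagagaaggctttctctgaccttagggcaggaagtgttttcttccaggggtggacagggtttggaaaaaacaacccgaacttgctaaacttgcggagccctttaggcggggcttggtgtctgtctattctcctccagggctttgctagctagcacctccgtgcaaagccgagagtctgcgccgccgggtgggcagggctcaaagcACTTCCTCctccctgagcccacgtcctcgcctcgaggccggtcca
Havcr2: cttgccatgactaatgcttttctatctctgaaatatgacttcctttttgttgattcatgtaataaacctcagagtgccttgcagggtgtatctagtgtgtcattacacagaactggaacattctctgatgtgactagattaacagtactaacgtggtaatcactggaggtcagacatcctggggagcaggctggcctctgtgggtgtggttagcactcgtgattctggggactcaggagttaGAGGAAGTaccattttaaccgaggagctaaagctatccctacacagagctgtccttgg
Fmnl1: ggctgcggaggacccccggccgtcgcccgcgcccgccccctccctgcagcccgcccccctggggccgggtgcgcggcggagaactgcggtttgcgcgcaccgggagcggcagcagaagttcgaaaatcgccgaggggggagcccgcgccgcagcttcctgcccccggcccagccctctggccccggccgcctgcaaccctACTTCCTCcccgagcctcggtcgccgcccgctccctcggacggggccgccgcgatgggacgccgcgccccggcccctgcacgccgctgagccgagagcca

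Fkbp5 (ENSMUSG00000024222, chromosome 17, 28399095 to 28517524) had the smallest p of all genes. It encodes a co-chaperone that binds the glucocorticoid receptor complex and is itself induced by glucocorticoids. Fkbp5 measured 89.5, 81.4, 119 and 135 CPM in control 2, 3, 4 and 5 and 213, 259, 208 and 199.97 CPM in exercise 13, 17, 18 and 19. All exercise libraries were above all control libraries, by 2.07-fold (log2 1.05, SE 0.16, adjusted p 0.0374), and the log2 difference was 0.96 without exercise 17. Of 24 tested genes of the glucocorticoid receptor and responder list, 4 were higher and 7 lower at an unadjusted p under 0.05, the median was -0.18 (-0.10 without exercise 17), and Fkbp5 was the only one called by edgeR (in the authors' deposited table also Lcn2, lower). The remaining higher genes were Ankrd27, a regulator of endosomal Rab proteins (11.2 to 14.5 CPM in control and 20.7 to 35.7 CPM in exercise; log2 0.96, SE 0.17, adjusted p 0.0384), Ccnl1, a cyclin linked to splicing (24.8 to 33.05 CPM in control and 38.7 to 55.95 CPM in exercise; log2 0.78, SE 0.16, adjusted p 0.0480), and the RIKEN gene 4731419I09Rik (3.03 to 7.45 CPM in control and 9.84 to 17.5 CPM in exercise; log2 1.35, SE 0.27, adjusted p 0.0480). Among the exercise libraries Ankrd27 was near 20.8 CPM in 3 and 35.7 in exercise 19.

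Igf2 was lower in exercise by more than any other called gene except Adh1. Igf2 (ENSMUSG00000048583, chromosome 7, 142650766 to 142666816) encodes insulin-like growth factor 2, which in the adult central nervous system comes mainly from meninges, choroid plexus and vessel-associated cells. Its levels were 1802, 1712, 1559.5 and 1182 CPM in control 2, 3, 4 and 5 and 141, 36.99, 285 and 299 CPM in exercise 13, 17, 18 and 19. Each exercise library was below each control library, exercise 17 lay furthest down, and exercise 18 and 19 were close to each other. The control mean was 8.22-fold the exercise mean (log2 -3.04, SE 0.58, adjusted p 0.0480), and without exercise 17 the log2 difference was -2.70. Igfbp4 (ENSMUSG00000017493, chromosome 11, 99041244 to 99054392), a secreted binding protein that holds insulin-like growth factors away from their receptors, measured 140.3, 152, 162 and 114 CPM in control 2, 3, 4 and 5 and 68.8, 65.97, 86.99 and 71.02 CPM in exercise 13, 17, 18 and 19. The exercise libraries lay close together below all controls (log2 -0.96, SE 0.16, adjusted p 0.0374; -0.91 without exercise 17). Of 17 tested genes of the insulin-like growth factor system these 2 were called and no other had an unadjusted p under 0.05, and the list median was -0.01 (-0.04 without exercise 17). Igf1, which lesion phagocytes secrete, measured 526 to 604 CPM in control and 367 to 616 CPM in exercise (log2 -0.17, SE 0.17, adjusted p 0.726).

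Vessel-wall genes were among the 13 lower genes. Vtn (ENSMUSG00000017344, chromosome 11, 78499091 to 78502324) encodes vitronectin, an integrin-binding matrix protein that pericytes express. Vtn measured 133, 110.1, 108 and 93.4 CPM in control 2, 3, 4 and 5 and 43.6, 29.4, 61.3 and 69.1 CPM in exercise 13, 17, 18 and 19. Exercise 17 was lowest and exercise 19 highest among the exercise libraries, and all were below control (log2 -1.13, SE 0.22, adjusted p 0.0480; -0.94 without exercise 17). Vcam1 (ENSMUSG00000027962, chromosome 3, 116109949 to 116129688), the endothelial ligand for the leukocyte integrin VLA-4, measured 63.9, 61.3, 64.4 and 56.3 CPM in control 2, 3, 4 and 5 and 35.7, 38.2, 36.9 and 42.9 CPM in exercise 13, 17, 18 and 19. The 2 groups were narrow and apart (log2 -0.68, SE 0.12, adjusted p 0.0384; -0.68 without exercise 17). Cxcl12 (ENSMUSG00000061353, chromosome 6, 117168535 to 117181367), a chemokine of vessels and meninges that attracts leukocytes and precursor cells, measured 75.8, 72.3, 57.3 and 73.7 CPM in control 2, 3, 4 and 5 and 29.4, 29.6, 44.6 and 30.2 CPM in exercise 13, 17, 18 and 19. Exercise 18 was the highest exercise library and the other 3 were nearly equal (log2 -1.06, SE 0.20, adjusted p 0.0401; -1.01 without exercise 17). Slco1a4 (ENSMUSG00000030237, chromosome 6, 141805440 to 141856199), an organic anion transporter of brain endothelium, measured 94.7, 90.9, 95.8 and 124 CPM in control 2, 3, 4 and 5 and 76.9, 42.4, 52.8 and 50.5 CPM in exercise 13, 17, 18 and 19. Control 5 was the highest library and exercise 13 the nearest exercise library to control (log2 -0.86, SE 0.16, adjusted p 0.0401; -0.75 without exercise 17).

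Adh1 (ENSMUSG00000074207, chromosome 3, 138260991 to 138290698) encodes an alcohol dehydrogenase that oxidises retinol. Adh1 measured 8.43, 7.18, 2.51 and 3.36 CPM in control 2, 3, 4 and 5 and 0.0931, 0.683, 0.355 and 0.609 CPM in exercise 13, 17, 18 and 19. Counts were few, down to 1 in exercise 13, and all exercise libraries were below all controls (log2 -3.61, SE 0.69, adjusted p 0.0424; -3.91 without exercise 17). Igsf1 (ENSMUSG00000031111, chromosome X, 49782536 to 49797749), a membrane glycoprotein of the immunoglobulin superfamily, measured 43.2, 74.7, 38.6 and 42.7 CPM in control 2, 3, 4 and 5 and 18.5, 9.76, 17.1 and 12.8 CPM in exercise 13, 17, 18 and 19. Control 3 was the highest library and exercise 17 the lowest (log2 -1.77, SE 0.34, adjusted p 0.0424; -1.63 without exercise 17). Plac8 (ENSMUSG00000029322, chromosome 5, 100553725 to 100572245), a small cysteine-rich protein abundant in monocytes, measured 16.7, 13.4, 22.3 and 18.01 CPM in control 2, 3, 4 and 5 and 3.07, 1.76, 7.18 and 5.78 CPM in exercise 13, 17, 18 and 19. Exercise 17 was the lowest and exercise 18 the highest of the exercise libraries (log2 -1.98, SE 0.38, adjusted p 0.0424; -1.72 without exercise 17). Dbi, the acyl-CoA binding protein, ranged over 91.1 to 112 CPM in control and 46.2 to 70.1 CPM in exercise (log2 -0.80, SE 0.13, adjusted p 0.0374), and Cox6c, a subunit of cytochrome c oxidase, over 126 to 172 CPM in control and 85.7 to 107 CPM in exercise (log2 -0.62, SE 0.12, adjusted p 0.0424). Ppm1l, a protein phosphatase, fell by 0.72 and Sf3b6, a splicing factor of the U2 particle, by 0.40 on the log2 scale, with adjusted p of 0.0401 and 0.0480. The difference in Sf3b6 was the smallest of the 29.

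**Figure D3:**
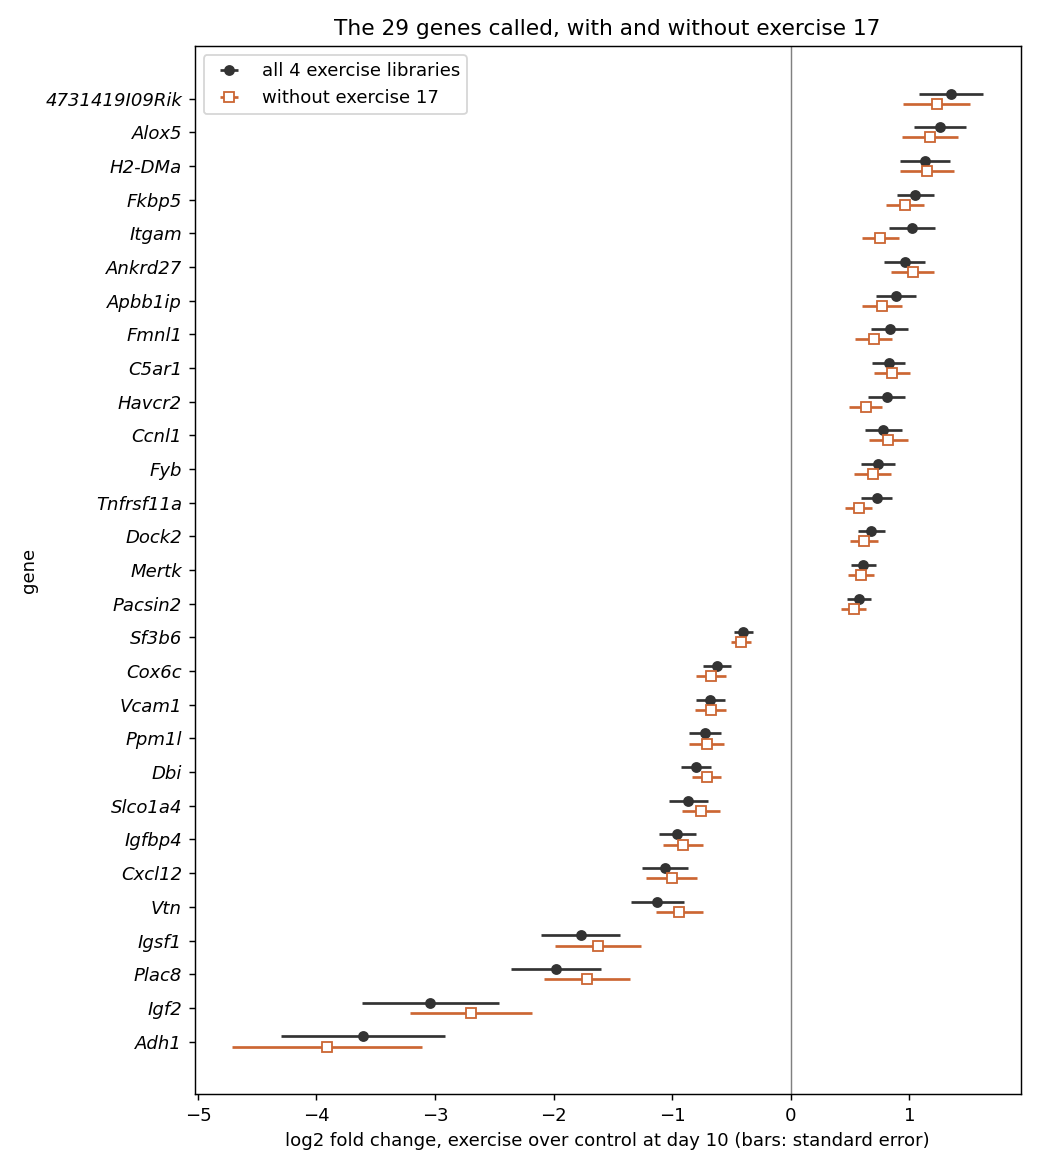
Points give the log2 fold change of exercise over control at day 10 (x axis) for each of the 29 genes (y axis), filled for all 4 exercise libraries and open without exercise 17, and bars are standard errors. All 29 keep their side of 0, which follows from groups that did not overlap with every library included. Itgam goes from 1.02 to 0.75 and Igf2 from -3.04 to -2.70.

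Around these genes, 50 lists of cell type and process genes were read as counts and medians, beside a median of 0.01 over all genes tested, of which 7.25% were higher and 5.56% lower at an unadjusted p under 0.05. Called, below, means by edgeR with all libraries, and where the authors' deposited table calls a further gene that is said. The share called over all genes tested was 0.106% higher and 0.0861% lower. The lists were chosen with earlier results of these data known, so their counts and separations are descriptions and not tests. In bulk lesion tissue, fewer cells of a type and less RNA per cell cannot be told apart. Most phagocyte lists had positive medians. Of 16 microglial genes 15 were higher in the mean and 8 had an unadjusted p under 0.05, with 0 called by edgeR, and the median was 0.47 (0.36 and 5 genes without exercise 17, where the background was 5.7%). Csf1r, the receptor for colony-stimulating factor 1 on which microglia depend, measured 555, 566, 558 and 544 CPM in control 2, 3, 4 and 5 and 791, 745, 718 and 673 CPM in exercise 13, 17, 18 and 19. The groups did not overlap, and the gene missed the threshold by edgeR (log2 0.40, SE 0.11, adjusted p 0.156) but was called in the authors' deposited table (0.38, adjusted p 0.0133), as the only one of the list. Fcrls, a microglial Fc receptor-like gene, gave log2 0.63 (adjusted p 0.217), and 0.37 without exercise 17. The summed microglial level overlapped, with 9406 to 12339 CPM in control and 10638 to 19148 CPM in exercise. In exercise 18 it was 10638 CPM, below control 4 and control 5 (12339 and 11110 CPM). The called receptor genes above were higher in exercise 18 than in every control, the groups being apart in all 29 called genes. For Mertk, C5ar1, Itgam, Havcr2 and Tnfrsf11a exercise 18 was the lowest exercise library, as it was for the summed microglial level. The part of the microglial level in the differences of those genes was not tested. None of the 16 microglial genes was at 0 counts.

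Other phagocyte lists differed in how they depended on exercise 17. Of 14 integrin, complement receptor and Fc receptor genes, C5ar1 and Itgam were called, 6 had an unadjusted p under 0.05 higher (2 without exercise 17) and 0 lower, and the median of 0.39 became 0.20 without exercise 17. Of 19 DOCK and leukocyte migration genes, Dock2 and Apbb1ip were called and 8 had an unadjusted p under 0.05 higher, 7 without exercise 17, and the median was 0.29 (0.23 without it). The mean level of that list was 5.26 to 5.40 in control and 5.53 to 5.60 in exercise (log2 CPM), and it was the only one of the 50 in which the exercise libraries were all above the control libraries by mean level. Dock2 and Apbb1ip, called in the same libraries, enter that level. By summed level, which abundant members set, the MHC class II presentation genes were also all above, with 2899 to 3319.6 CPM in control and 3426 to 4368 CPM in exercise. Their mean level overlapped, with 3.85 to 4.21 in control and 3.93 to 4.38 in exercise (log2 CPM). Exercise 17 had the highest sum but the lowest mean level of the exercise libraries. The authors' deposited table also called Dock8 of the migration list, higher. Among MHC class II presentation genes H2-DMa was called while the median of 13 genes was 0.23, with 4 genes lower in the mean. The 17 class I genes had a median of 0.09 (0.06 without exercise 17), with Erap1, a peptide-trimming protease, at 0.39 and Tap1, a peptide transporter, at 0.34 (adjusted p 0.362 and 0.388). The 25 lysosomal genes had a median of 0.26 with 7 higher and 0 lower at an unadjusted p under 0.05, and 0.05 with 1 and 1 without exercise 17.

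The TAM list, with Mertk as its only called gene, had a median of 0.32 over 7 genes that became 0.01 without exercise 17. The leukotriene and prostaglandin list, where Alox5 alone was called, went from 0.32 to 0.09, and the disease-associated activation list from 0.30 to 0.12. Within that list Clec7a, the beta-glucan receptor dectin-1, measured 231, 245, 241 and 289 CPM in control 2, 3, 4 and 5 and 337, 383, 298 and 318 CPM in exercise 13, 17, 18 and 19, with no overlap (log2 0.41, SE 0.14, adjusted p 0.226). Cst7, a cathepsin inhibitor, gave 0.65 with exercise 17 and 0.29 without it (adjusted p 0.322 with it). Scavenger receptor and lipid droplet genes had a median of -0.02 (-0.05 without exercise 17), among them the scavenger receptor Colec12 at 0.38 and the lipase Lpl at 0.30 (adjusted p 0.192 and 0.366). Alternatively activated macrophage genes had a median of 0.15 (-0.05 without exercise 17), with the scavenger receptor Stab1 at 0.44 and the transglutaminase Tgm2 at -0.42 (adjusted p 0.182 and 0.438). Proinflammatory mediators had a median of 0.13 and went both ways. Nlrp3, an inflammasome sensor, measured 4.10, 3.64, 2.98 and 4.34 CPM in control 2, 3, 4 and 5 and 11.1, 11.5, 5.14 and 6.59 CPM in exercise 13, 17, 18 and 19, with exercise above control throughout (log2 1.18, SE 0.33, adjusted p 0.156). Nfkbia, the inhibitor of NF-kB, was at -0.65 (adjusted p 0.173). The lysosomal marker Cd68 (0.31; 0.05 without exercise 17), the microglial marker Aif1 (0.25) and the lipid carrier Apoe (-0.09) did not pass either.

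Monocyte genes had a median of opposite sign to that of microglial genes. Of 14 tested, 12 were lower in the mean, Plac8 was called (in the authors' deposited table also Fn1, higher), and 6 had an unadjusted p under 0.05 lower and 1 higher (2 and 1 without exercise 17, where the background for lower was 4.9%), with a median of -0.68 (-0.63 without exercise 17). The mean level was 3.53 to 4.40 in control and 3.06 to 3.50 in exercise (log2 CPM), so that the groups did not overlap, while the summed level, 6488 to 7428 CPM in control and 5403 to 8082 CPM in exercise, overlapped. Neutrophil genes had a median of -1.71, but only 6 of 13 passed the filter on low counts, Elane and Mpo were at 0 in all 8 libraries, and leaving out single libraries moved the median between -2.05 and -0.57. Lymphocyte genes, 6 of 17 tested, had a median of 0.09 and a range of -0.49 to 0.29 over single libraries left out.

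Most members of the vascular lists were lower in the mean in the exercise lesions. Of 21 endothelial identity genes, 18 were lower in the mean, 9 had an unadjusted p under 0.05 lower and 2 higher (5 and 1 without exercise 17), and 0 were called by edgeR. The authors' deposited table called Ly6c1, lower, and Cd34, higher. The median of -0.62 was -0.59 without exercise 17 and between -0.70 and -0.50 with any single library left out. The mean level was 3.20 to 3.31 in control and 2.58 to 3.09 in exercise (log2 CPM), without overlap, but the summed level, which abundant members set, overlapped, with 397 to 440.3 CPM in control and 400.3 to 511 CPM in exercise. Ly6c1, a surface marker of endothelium that shares sequence with Ly6c2, ranged over 18.8 to 32.6 CPM in control and 12.6 to 16.9 CPM in exercise (log2 -0.74, SE 0.17, adjusted p 0.0824; adjusted p 0.0277 in the authors' deposited table). Cd34, a sialomucin of endothelial and progenitor cells, was at 84.4 to 134 CPM in control and 155 to 183 CPM in exercise (log2 0.65, SE 0.16, adjusted p 0.104; adjusted p 0.0242 in the authors' deposited table). Cldn5, the tight junction claudin of the blood-brain barrier, measured 12.1, 9.82, 12.5 and 11.95 CPM in control 2, 3, 4 and 5 and 5.31, 4.39, 6.30 and 6.70 CPM in exercise 13, 17, 18 and 19. All exercise libraries were below all control libraries, with an adjusted p of 0.0544 by edgeR (log2 -1.03) and 0.0127 in the authors' deposited table. Pecam1, the endothelial adhesion molecule CD31, overlapped between the groups (log2 -0.34, SE 0.24, adjusted p 0.584).

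Of 11 vascular adhesion genes 3 were called lower (Vcam1, Cxcl12 and Vtn) and 6 had an unadjusted p under 0.05 lower (5 without exercise 17), with a median of -0.48 and levels of 4.73 to 5.15 in control and 4.13 to 4.50 in exercise (log2 CPM). Of the 3, Cxcl12 is a chemokine, also on the chemokine list, and Vtn a matrix protein, also on the pericyte list. All 3 enter the level of the adhesion list. The 20 barrier junction and transporter genes had a median of -0.12, with Slco1a4 called and 6 lower at an unadjusted p under 0.05 (3 without exercise 17), and levels of 5.03 to 5.17 in control and 4.61 to 4.95 in exercise. By mean level both lists separated the groups with and without exercise 17. By summed level the adhesion list did so too, and the barrier list overlapped, with 1341 to 1428 CPM in control and 1136 to 1419 CPM in exercise. The 14 pericyte and smooth muscle genes had a median of -0.34, with Vtn the only one called by edgeR (the authors' deposited table also called Anpep, lower). Its summed level of 613 to 653 CPM in control and 442 to 521 CPM in exercise did not overlap, while its mean level did, with 3.69 to 3.98 in control and 3.01 to 3.75 in exercise (log2 CPM). The 20 meningeal fibroblast genes had a median of -0.16, with Igf2 the only one called by edgeR (in the authors' deposited table also Slc6a13, lower), and their mean level of 5.49 to 5.87 in control and 4.36 to 5.86 in exercise (log2 CPM) overlapped, exercise 13 and exercise 17 being the lowest. The summed meningeal level, of which Igf2 itself was a member, was 4599.6 to 5968 CPM in control and 1998 to 5434 CPM in exercise, and the part of meningeal or vascular tissue in the lower genes was not tested. Collagen genes, which the same fibroblasts express, had a median of 0.05 that ran from -0.17 to 0.20 with single libraries left out. Retinoid genes had a median of -0.09 (-0.16 without exercise 17) over 17 genes, with Adh1 the only one lower at an unadjusted p under 0.05.

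Oligodendrocyte genes, on which repair of the lesion depends, gave 0 calls by edgeR and in the authors' deposited table. Precursor genes had a median of -0.09 over 15 genes (-0.11 without exercise 17), and premyelinating genes -0.06 over 11 (0.00470). Olig2, a transcription factor of the whole lineage, measured 128, 125, 127 and 137 CPM in control 2, 3, 4 and 5 and 103, 104, 115 and 76.6 CPM in exercise 13, 17, 18 and 19. The exercise libraries were all lower, without reaching the threshold (log2 -0.37, SE 0.14, adjusted p 0.279; -0.39 without exercise 17). Pdgfra, the precursor growth factor receptor, overlapped (log2 -0.09, SE 0.11, adjusted p 0.773). The 28 myelin and mature oligodendrocyte genes had a median of -0.30, with 7 lower at an unadjusted p under 0.05, and -0.13 with 2 without exercise 17. Mbp, myelin basic protein, measured 9416, 8889.9, 9752 and 10045 CPM in control 2, 3, 4 and 5 and 10335, 5503, 8796 and 5664 CPM in exercise 13, 17, 18 and 19. Exercise 17 and 19 were low while exercise 13 exceeded every control and exercise 18 lay just below the lowest (log2 -0.33, SE 0.19, adjusted p 0.475; -0.21 without exercise 17). Mog, a myelin surface protein, had the same order of libraries within exercise, from 17 through 19 and 18 to 13 (log2 -0.48, SE 0.22, adjusted p 0.382). Myrf, the transcription factor of myelin genes, was at 0.01 with exercise 17 and 0.24 without it.

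The series title names PGC1a, a coactivator of mitochondrial gene expression encoded by Ppargc1a. Ppargc1a (ENSMUSG00000029167, chromosome 5, 51454250 to 51567726) measured 7.67, 10.5, 8.66 and 13.2 CPM in control 2, 3, 4 and 5 and 6.71, 3.61, 8.60 and 6.70 CPM in exercise 13, 17, 18 and 19. The groups overlapped, exercise 17 was the lowest library, and the difference did not pass (log2 -0.64, SE 0.27, adjusted p 0.339; -0.45 without exercise 17). Over 18 genes of the coactivator and mitochondrial biogenesis list the median was -0.02 (-0.05 without exercise 17), with Gabpb1 and Nrf1, both transcription factors of respiratory genes, at 0.39 and 0.48 (adjusted p 0.279 and 0.304). Sterol and fatty acid synthesis genes, which supply myelin lipids, had a median of -0.22 over 26, with 8 lower and 2 higher at an unadjusted p under 0.05 (6 and 1 without exercise 17), and 0 called by edgeR or in the authors' deposited table. Their summed level was 6243 to 7011 CPM in control and 5159 to 5764 CPM in exercise, without overlap, while the mean level overlapped. Acaca, which makes malonyl-CoA, was at 0.39 (adjusted p 0.226).

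Among other neural cells, homeostatic astrocyte genes had a median of -0.33 over 18 (-0.26 without exercise 17), 15 being lower in the mean. Gja1, the astrocyte gap junction protein connexin 43, measured 236, 308, 186 and 242 CPM in control 2, 3, 4 and 5 and 164, 123, 151 and 137 CPM in exercise 13, 17, 18 and 19. Its groups did not overlap, and its adjusted p of 0.0713 by edgeR missed the threshold (log2 -0.76). Gjb6, connexin 30, was at -0.77 (adjusted p 0.183). The authors' deposited table called both lower, with adjusted p of 0.00712 and 0.00326. Reactive astrocyte genes went both ways around a median of -0.19. Cp, the copper-carrying ferroxidase ceruloplasmin, measured 93.5, 78.6, 74.3 and 75.2 CPM in control 2, 3, 4 and 5 and 36.4, 35.9, 46.9 and 55.9 CPM in exercise 13, 17, 18 and 19. Serpina3n, a protease inhibitor of reactive astrocytes, measured 209, 183, 261 and 245 CPM in control 2, 3, 4 and 5 and 278, 359, 415 and 382 CPM in exercise 13, 17, 18 and 19. Neither gene overlapped between the groups, Cp being lower (log2 -0.88, SE 0.19, adjusted p 0.0644) and Serpina3n higher (log2 0.67, SE 0.15, adjusted p 0.0761), and neither passed by edgeR. The authors' deposited table called both, with adjusted p of 0.000937 and 0.0157, and Lcn2, lower. Gfap, the astrocyte filament protein, overlapped (log2 -0.16, SE 0.19, adjusted p 0.755). Schwann cell and peripheral myelin genes had a median of -0.49 over 12. By mean level the groups did not overlap (4.80 to 5.55 in control and 4.02 to 4.65 in exercise (log2 CPM)), but by summed level they did, with 10834 to 13651 CPM in control and 5084 to 13392 CPM in exercise. Neuronal genes had a median of -0.08 that ran from -0.62 to 0.14 with single libraries left out. Skeletal muscle and blood genes were near 0: 2 of 10 muscle genes and 1 of 7 erythrocyte genes passed the filter on low counts, with summed levels of at most 4.58 and 2.31 CPM.

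Process lists with high medians had lower medians without exercise 17. Mitosis genes had a median of 0.44 over 27 (-0.00257 without exercise 17), DNA replication genes 0.25 over 28 (0.06), and glycolysis and hypoxia genes 0.35 over 23 (0.13), where 13 genes were higher and 1 lower at an unadjusted p under 0.05 with exercise 17, and 5 and 1 without it. Mki67, a nuclear protein of cycling cells, measured 13.1, 11.4, 14.3 and 13.3 CPM in control 2, 3, 4 and 5 and 16.2, 35.9, 16.2 and 35.2 CPM in exercise 13, 17, 18 and 19. Exercise 17 and exercise 19 were high, and exercise 13 and 18 lay just above the controls (log2 0.99, SE 0.25, adjusted p 0.120; 0.78 without exercise 17). Hk2, a hexokinase, measured 83.99, 82.5, 119 and 103 CPM in control 2, 3, 4 and 5 and 156, 249.5, 124 and 127 CPM in exercise 13, 17, 18 and 19, all exercise libraries being above control (log2 0.76, SE 0.19, adjusted p 0.120; 0.48 without exercise 17). Genes of protein folding in the endoplasmic reticulum went from 0.21 to 0.03. Interferon-stimulated genes had a median of -0.44 (-0.39 without exercise 17), but control 2 held the highest level and control 3 one near the lowest, the range being 2.81 to 4.31 in control and 2.70 to 3.63 in exercise (log2 CPM). Nuclear-encoded respiratory chain genes, among which Cox6c was called, were lower in the mean for 61 of 75, with a median of -0.12 (-0.14 without exercise 17), and 9 were lower and 1 higher at an unadjusted p under 0.05 (9 and 1 without it). The authors' deposited table also called Ndufb11, lower. Acyl-CoA genes, which include Dbi, had a median of -0.06 (-0.10 without exercise 17). Chemokines and their receptors, which include Cxcl12, had a median of -0.14 that became -0.29 without exercise 17. Of 26, 8 were lower and 2 higher at an unadjusted p under 0.05, and 4 and 0 without it. The authors' deposited table also called Ackr1 and Ccl7 of this list, lower.

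**Figure D4:**
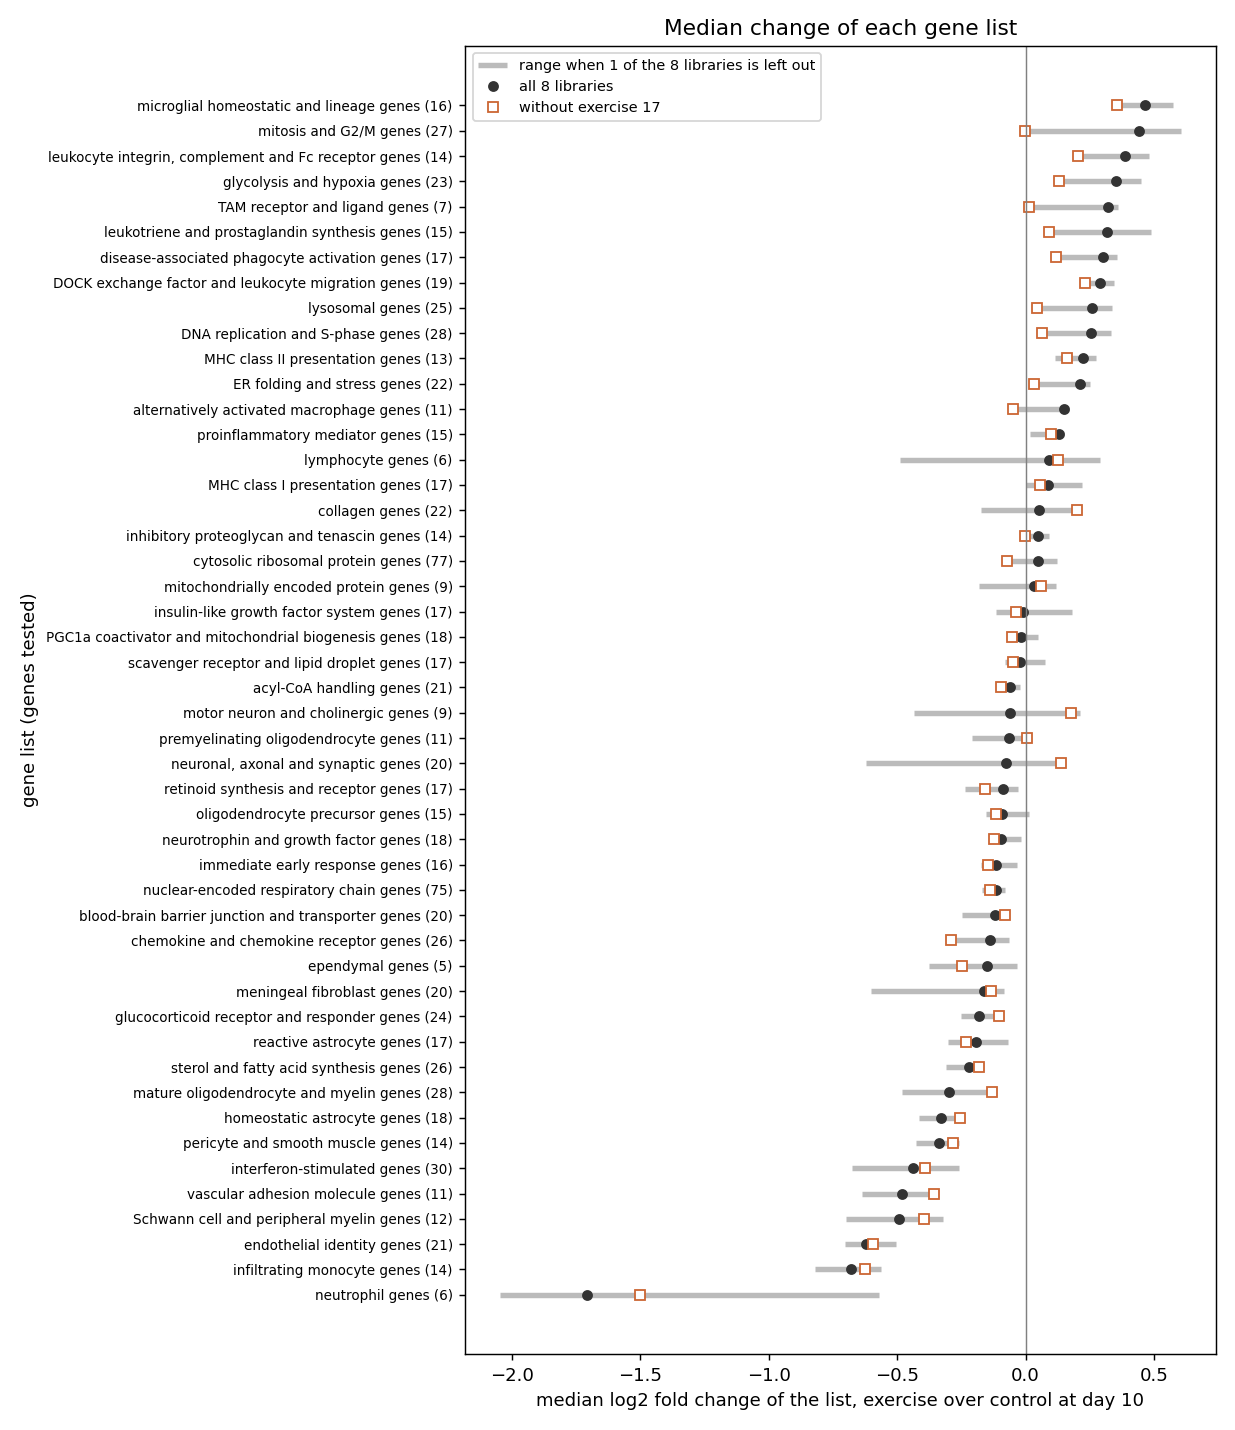
Points give the median log2 fold change of each list with at least 5 genes tested (y axis, number of genes in brackets), filled for all 8 libraries and open without exercise 17, and grey bars the range when any one of the 8 libraries is left out. Endothelial genes stay between -0.70 and -0.50, while mitosis genes run from -0.00257 to 0.61.

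**Figure D5:**
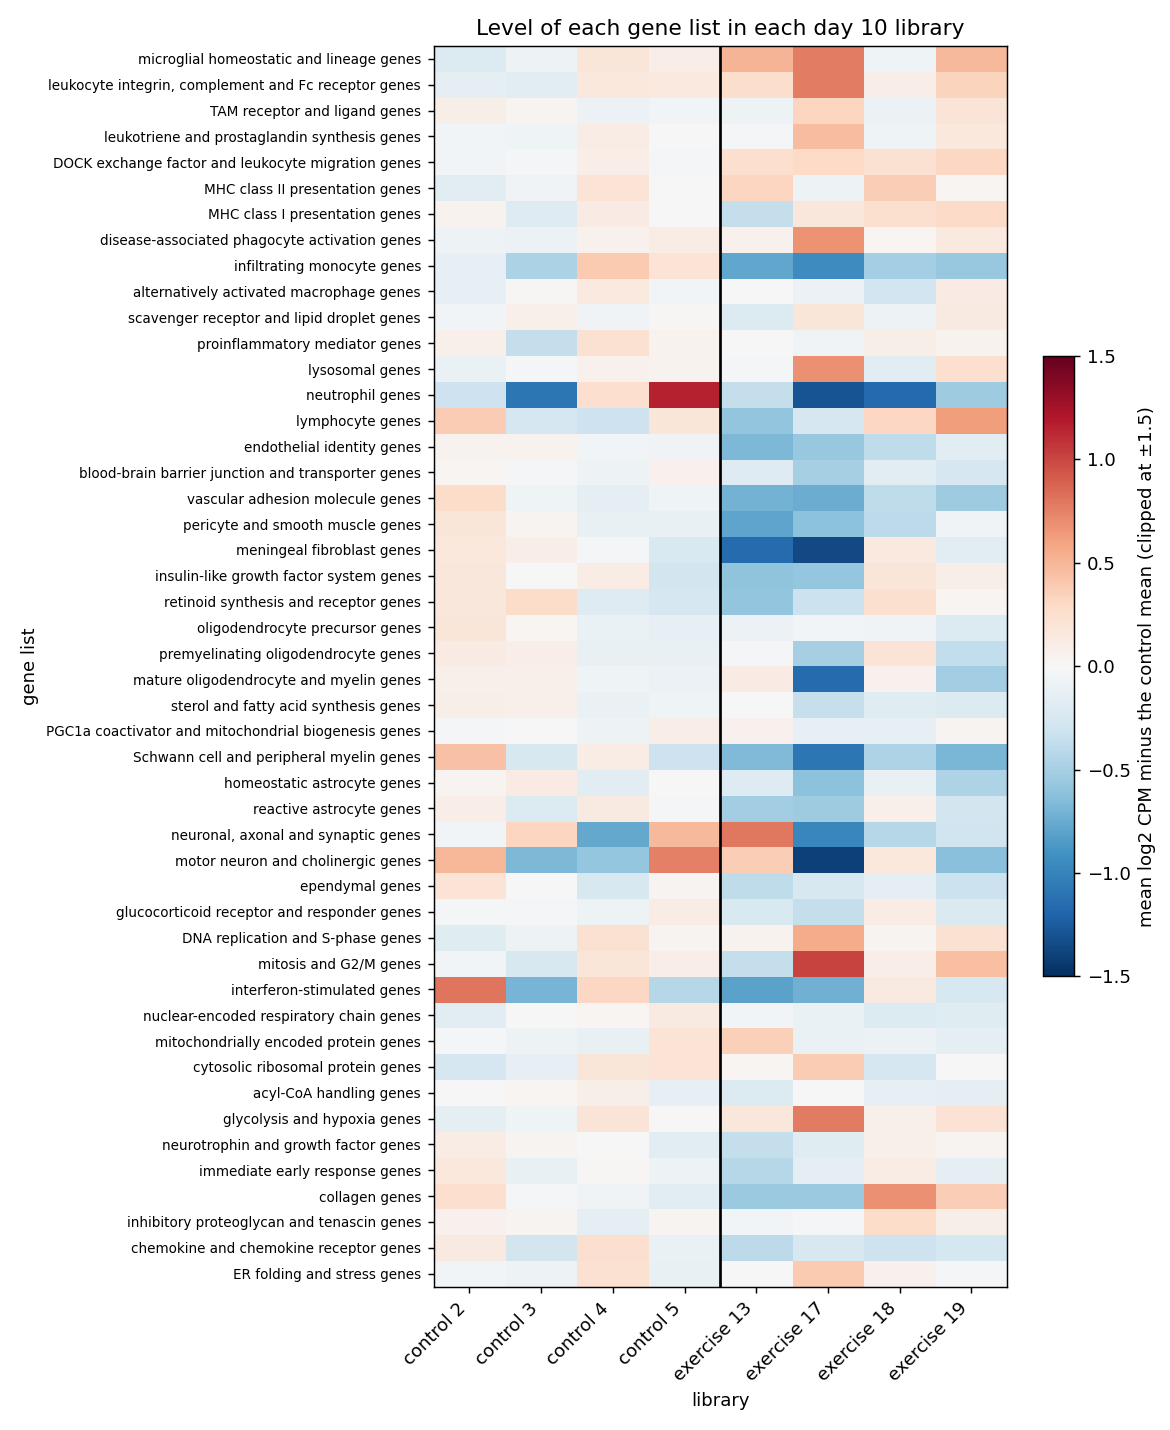
Colour gives each list's mean log2 CPM in each day 10 library minus the mean of the 4 control libraries, clipped at 1.5, with control left and exercise right of the line. Endothelial, adhesion and monocyte genes are below the control mean in all 4 exercise libraries, and exercise 17 carries the strongest lysosomal and mitosis levels and the lowest myelin level.

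Among the genes that led the authors' deposited table, made without exercise 17, Fbxo40 and Epha3 had exercise 17 on the side of the controls. In Igf2 and Igsf1, also among the leading genes, exercise 17 was the lowest library, beyond the other exercise libraries. Fbxo40, a muscle ubiquitin ligase subunit with a log2 fold change of 2.37 in the authors' deposited table, measured 1.90, 2.18, 1.77 and 2.37 CPM in control 2, 3, 4 and 5 and 6.52, 1.46, 13.7 and 11.9 CPM in exercise 13, 17, 18 and 19. Epha3, an ephrin receptor of axon guidance (1.96 in the authors' deposited table), measured 5.70, 4.18, 5.68 and 3.68 CPM in control 2, 3, 4 and 5 and 9.97, 4.59, 24.6 and 22.2 CPM in exercise 13, 17, 18 and 19. Exercise 17 was below all controls for Fbxo40 and among them for Epha3, while the other 3 exercise libraries were above every control in both, and edgeR with all libraries did not call them (log2 2.02, SE 0.65, adjusted p 0.212 and log2 1.67, SE 0.45, adjusted p 0.139). Ackr1, the chemokine-scavenging receptor of venules (-1.49 in the authors' deposited table), measured 21.4, 16.9, 20.01 and 19.4 CPM in control 2, 3, 4 and 5 and 6.80, 13.96, 5.41 and 8.73 CPM in exercise 13, 17, 18 and 19. Slc38a5, an amino acid transporter (-1.69 in the authors' deposited table), measured 9.19, 8.27, 12.1 and 10.4 CPM in control 2, 3, 4 and 5 and 3.07, 6.93, 3.10 and 3.15 CPM in exercise 13, 17, 18 and 19. In these, exercise 17 was still below every control but nearer to them than the other exercise libraries (log2 -1.16, SE 0.29, adjusted p 0.109 and log2 -1.30, SE 0.31, adjusted p 0.0910). Ccl7, a monocyte-attracting chemokine, was low in all 4 exercise libraries, at 13.96 to 18.7 CPM in control and 3.64 to 6.43 CPM in exercise (log2 -1.67, SE 0.36, adjusted p 0.0613; -1.64 in the authors' deposited table). The predicted genes Gm10384 and Gm37760 were at 2.38 and 2.24 (adjusted p 0.139 and 0.0613; 2.65 and 2.45 in the authors' deposited table). In both, exercise 17 was above every control but was the lowest exercise library.

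At day 5, 23 of the 29 genes had the same sign as at day 10, with no share over all genes to set beside it. The 23 include values near 0, such as Plac8 at -0.002 and Vtn at -0.04 on the log2 scale. Of the 29, 4 had an unadjusted p under 0.05 at day 5 (background 10%). Fkbp5 was at -0.16, Mertk at 0.11, Igf2 at -0.20 and Vcam1 at 0.23 on the log2 scale at day 5, whereas Dbi (-0.46), Cox6c (-0.42), Sf3b6 (-0.32) and C5ar1 (0.33) were the 4 with an unadjusted p under 0.05. For Igf2 the levels themselves were lower at day 5, with a control mean of 126 ± 81.9 CPM and an exercise mean of 109.6 ± 24.9 CPM (SD, 4 libraries each). The difference between the days was tested as an interaction: edgeR called 0 genes, with 1376 at an unadjusted p under 0.05 (9.11%), and DESeq2 called 18. Of the 29, 26 had an unadjusted interaction p under 0.05, but they were chosen for their day 10 difference, which enters that test, and their adjusted interaction p ran from 0.296 to 0.857.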

How the data were processed

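Gene expression was measured by RNA-seq in laser-microdissected lesions. The submitters' processing notes name FastQC 0.11.4, TopHat2 2.0.10, Bowtie 1.1.2, featureCounts 1.5.0-p1 and the build GRCm38. The authors deposited raw counts per Ensembl gene, made by featureCounts with strand setting 1 per the file headers. Symbols and coordinates came from a GENCODE annotation of GRCm38, which named 45143 of 46078 genes. The authors' deposited day 10 table covers 7 libraries and holds, per the file headers, a mean normalized signal, log2 fold changes, their errors, p-values and adjusted p-values; DESeq2 1.12.4 is in the processing notes.

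The test was edgeR 4.0.16 (R 4.3.3). The filter was filterByExpr (count 10, total count 15) over the 4 groups of 16 libraries, scaling was TMM, and the robust quasi-likelihood fit had 12 residual degrees of freedom and a common biological coefficient of variation of 0.236. A gene is called at a Benjamini-Hochberg adjusted p under 0.05 over 15096 genes, and every adjusted p in the text is edgeR's unless named otherwise. SE is the log2 fold change divided by the square root of F. CPM is TMM-scaled, and a list's level is its mean log2 CPM with a prior count of 2. Replicate libraries differed by more than sampling noise, and the scripts were tested on simulated data. DESeq2 1.42.0, voom of limma 3.58.1, other scalings, no filter, fewer libraries and each library left out were the alternatives.

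Members and gene lists were chosen with earlier results of these data known. The genes eligible to be named were every called gene, from each list its called members or else the 2 with the smallest p, 15 fixed genes, the 5 in each direction leading the authors' table, and the 5 in each direction in which exercise 17 lies farthest beyond the other libraries. Not all of them are printed, and some are not reported here.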

Additional observations from a re-analysis of the deposited data

Results flagged for a closer look

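One library was far from the other 3 of its group, by Dixon's gap ratio above 0.829, in 17 of 180 pairs of a named gene and a day 10 group, and chance gives such a gap in about 1 in 20 groups. The genes in which exercise 17 lies farthest beyond the others were chosen for that gap. Control 2 lay apart from the other 3 libraries of its group in Nr4a1 (13.4 CPM against 4.93 to 6.09) and Cd68 (465 CPM against 620.1 to 635). Control 3 lay apart from the other 3 libraries of its group in Igsf1 (74.7 CPM against 38.6 to 43.2). Control 4 lay apart from the other 3 libraries of its group in Ccnl1 (33.05 CPM against 24.8 to 25.5). Control 5 lay apart from the other 3 libraries of its group in Slco1a4 (124 CPM against 90.9 to 95.8) and Entpd3 (8.11 CPM against 2.14 to 2.55). Exercise 17 lay apart from the other 3 libraries of its group in Cst7 (317 CPM against 135 to 158), Slc38a5 (6.93 CPM against 3.07 to 3.15), Mybl2 (46.6 CPM against 0.931 to 5.28), AI429214 (30.7 CPM against 1.33 to 2.70), Fmr1nb (11.9 CPM against 0.709 to 1.93), Arhgef39 (10.3 CPM against 1.24 to 2.13), Mum1l1 (2.54 CPM against 0.279 to 0.532) and Abca8a (0.293 CPM against 4.38 to 5.14). Exercise 18 lay apart from the other 3 libraries of its group in Cxcl12 (44.6 CPM against 29.4 to 30.2) and Nfkbia (36.1 CPM against 18.3 to 20.7). Exercise 19 lay apart from the other 3 libraries of its group in Ankrd27 (35.7 CPM against 20.7 to 20.9).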

How the results depend on the processing

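Of 20 alternatives, those on scaling, filter, mitochondrial genes, voom with and without quality weights, and non-robust estimation gave 25 to 38 called genes, against 29. EdgeR on the 8 day 10 libraries called 0 (1519 at an unadjusted p under 0.05), and on the authors' 7 libraries 3 (2 higher, 1 lower). DESeq2 called 227 (132 higher, 95 lower) on all 16 libraries, 176 (84 and 92) on 8 and 182 (97 and 85) on 7. Leaving out 1 library gave 0 to 136 called genes, 0 to 77 higher and 0 to 59 lower. The interaction had 18 calls by DESeq2 on all 16 libraries and 0 in every other setting run. All 29 genes kept their sign in all 20 alternatives. For libraries left out this was fixed beforehand, because the groups of these genes did not overlap. Direction reversed for Myrf (-0.00366 with no filter, -0.0801 by voom, -0.0316 with quality weights and -0.17 to 0.24 with 1 library left out, below 0 without control 4, control 5, exercise 13 or exercise 18), for Mum1l1 (-0.19 to 1.28 with 1 left out, below 0 without exercise 17), for Mfap2 (0.36 by edgeR and 0.36 by DESeq2 on 7 libraries, -0.91 to 0.36 with 1 left out, above 0 without control 2, control 3, exercise 13 or exercise 17) and for Abca8a (0.23 and 0.23 on 7 libraries, -0.37 to 0.24 with 1 left out, above 0 without control 2 or exercise 17); none of these passed a threshold, and the cause was not tested. No paired analysis was possible because the day 10 groups share no replicate numbers. Depth limits genes near the filter, such as Adh1 with 1 count in exercise 13.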

Other observations

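Growth factor, immediate early and matrix genes gave 0 calls by edgeR. Of 18 growth factor genes 2 had groups that did not overlap, against 5.88% of all genes tested. Vegfa, the vascular growth factor, measured 21.7, 21.997, 19.1 and 19.1 CPM in control 2, 3, 4 and 5 and 23.1, 45.3, 28.7 and 39.7 CPM in exercise 13, 17, 18 and 19, with every exercise library above every control (log2 0.74, SE 0.20, adjusted p 0.139; 0.57 without exercise 17). Tgfb1, a growth factor of microglia and macrophages, measured 41.2, 43.2, 39.7 and 47.5 CPM in control 2, 3, 4 and 5 and 71.6, 70.2, 53.4 and 47.6 CPM in exercise 13, 17, 18 and 19, with exercise 19 only just above control 5 (log2 0.50, SE 0.15, adjusted p 0.173). The median over 18 growth factor genes was -0.09. Fos, an activity-induced transcription factor, was at 0.61 and Nr4a1, another, at -0.80 (adjusted p 0.182 and 0.345), in a list with a median of -0.12. Among inhibitory matrix genes, Tnr, the oligodendrocyte matrix protein tenascin-R, was at 0.45 and Csgalnact1, which starts chondroitin sulfate chains, at -0.52 (adjusted p 0.284 and 0.210), around a median of 0.05 (-0.00241 without exercise 17). Both overlapped between the groups, and the authors' deposited table called Tnr (adjusted p 0.0326). Ribosomal protein genes had a median of 0.05 with exercise 17 and -0.07 without it, and mitochondrially encoded genes 0.03 and 0.06.

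Exercise 17 departed from the other 7 libraries in single genes. Mybl2, a transcription factor of the cell cycle, measured 1.44, 2.27, 3.63 and 1.72 CPM in control 2, 3, 4 and 5 and 0.931, 46.6, 1.15 and 5.28 CPM in exercise 13, 17, 18 and 19. AI429214, a predicted gene, had the same pattern, with 30.7 CPM in exercise 17 and at most 4.28 elsewhere. Arhgef39, a guanine nucleotide exchange factor, had 10.3, Fmr1nb 11.9 and Mum1l1 2.54 CPM in exercise 17, each above all others. In the other direction C6, a component of the complement membrane attack complex, had 0.0976 CPM in exercise 17 and at least 5.07 elsewhere. Entpd3, an ectonucleotidase, Mfap2, a microfibril protein, and Vgf, a neuropeptide precursor, had 0 counts in exercise 17, and Abca8a, a lipid transporter, had 0.293 CPM. These genes were chosen for the gap and are given with no test.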
